A study of Mus musculus with 8 samples.

Results

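The genes described here code for the proteins that choose splice sites: the SR proteins and their relatives TRA2A and TRA2B, the heterogeneous nuclear ribonucleoproteins (hnRNPs), the U2AF heterodimer, and the SF3A and SF3B complexes of the U2 small nuclear ribonucleoprotein. They were taken by symbol, as all protein-coding mouse genes whose names begin with Srsf, Hnrnp, Sf3a or Sf3b, plus Tra2a, Tra2b, U2af1 and U2af2. This gave 45 genes: 11 SR protein genes, 2 Tra2 genes, 21 hnRNP genes, 2 U2AF genes, 3 SF3A genes and 6 SF3B genes. Of these, 42 carried at least 1 peak of N6-methyladenosine (m6A), out of 13110 gene identifiers with a peak in all. Among the 21900 protein-coding RefSeq genes, 48.8% had a peak.

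The study mapped m6A in mouse embryonic stem cells whose Setd2 gene can be knocked down by doxycycline (Dox). The Dox cells received 1 µg/ml for 4 days and the control cells received none. Both carried the knockdown construct and grew as feeder-free spheres in serum-free 2i medium, with 1 µM of the MEK inhibitor PD0325901, 3 µM of the GSK3 inhibitor CHIR99021 and 1000 U/ml LIF. Dox was given only to cells with the construct, and a response to the drug and one to the knockdown cannot be told apart. Each condition had 2 libraries from an immunoprecipitation with an m6A antibody (IP) and 2 of input RNA. The authors pooled the replicates and deposited 1 peak table per condition, so every value below is a single value per condition, without replicate error and without a test between conditions. Sequencing depth is unknown from these tables.

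m6A is written on messenger RNA by the METTL3-METTL14 complex, often within a short motif with the core GGAC, and is found in long internal exons, near stop codons and at some transcript starts. SETD2 is the enzyme that trimethylates histone H3 at lysine 36 (H3K36me3) over gene bodies, and the comparison addresses where m6A lies on RNA with and without it. SR proteins bind exonic enhancers and help the splicing machinery onto an exon. Many hnRNPs do the opposite at silencers, U2AF recognises the end of the intron, and SF3A and SF3B hold the U2 particle at the branch point. Many genes of both groups control their own level by splicing in exons that send the transcript to decay.

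Nearly all of these genes had m6A peaks in both conditions. Peaks were present in both tables for 41 of the 42 genes, in Dox alone for Srsf1, and in control alone for none. Over all identifiers, 11.1% had peaks in Dox alone and 8.92% in control alone. Sf3b6, which contacts the branch point adenosine, Srsf12 and Tra2a had no peak in either table. Dox cells had 105 peaks on these genes and control cells 90. The number of peaks was higher in Dox for 13 genes, the same for 24 and lower for 5. This count was not made over all identifiers, but all Dox peaks also outnumbered all control peaks (27612 against 25815).

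Peaks without a partner were more frequent in Dox than in control on these genes. In Dox, 23 of the 105 peaks (21.9%, exact 95% interval 14.4 to 31.0) overlapped no control peak, beside 29.1% of all Dox peaks. In control, 4 of the 90 peaks (4.44%, 1.22 to 10.99) overlapped no Dox peak, beside 19.3% of all control peaks. These intervals hold counting error alone and treat each peak as independent. Peaks overlap here when their exonic blocks share 1 nucleotide or more on 1 strand. With peaks of at least 4-fold in both tables the order was the other way, with 8.70% of 23 Dox peaks and 41.0% of 39 control peaks lacking a partner. The peaks of these genes also had lower p than most, with a median log10 p of -40.7 in Dox and -53.25 in control. Over all Dox and all control peaks it was -7.28 and -9.68. By fold they were not stronger, with medians of 2.60 against 3.51 in Dox and 3.565 against 4.62 in control. Peaks of higher p lacked a partner more often. Among Dox peaks of like p, the share without a partner was not lower on these genes than over all peaks. It was 14 of 24 (58.3%, against 45.3% of all Dox peaks) at a log10 p above -10, 7 of 33 (21.2%, against 10.2%) from -10 to -50, and 2 of 48 (4.17%, against 1.21%) at -50 or less. Among control peaks it was 2 of 13 (15.4%, against 34.3% of all control peaks), 1 of 31 (3.23%, against 6.30%) and 1 of 46 (2.17%, against 0.543%) in the same classes.

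**Figure D1:**
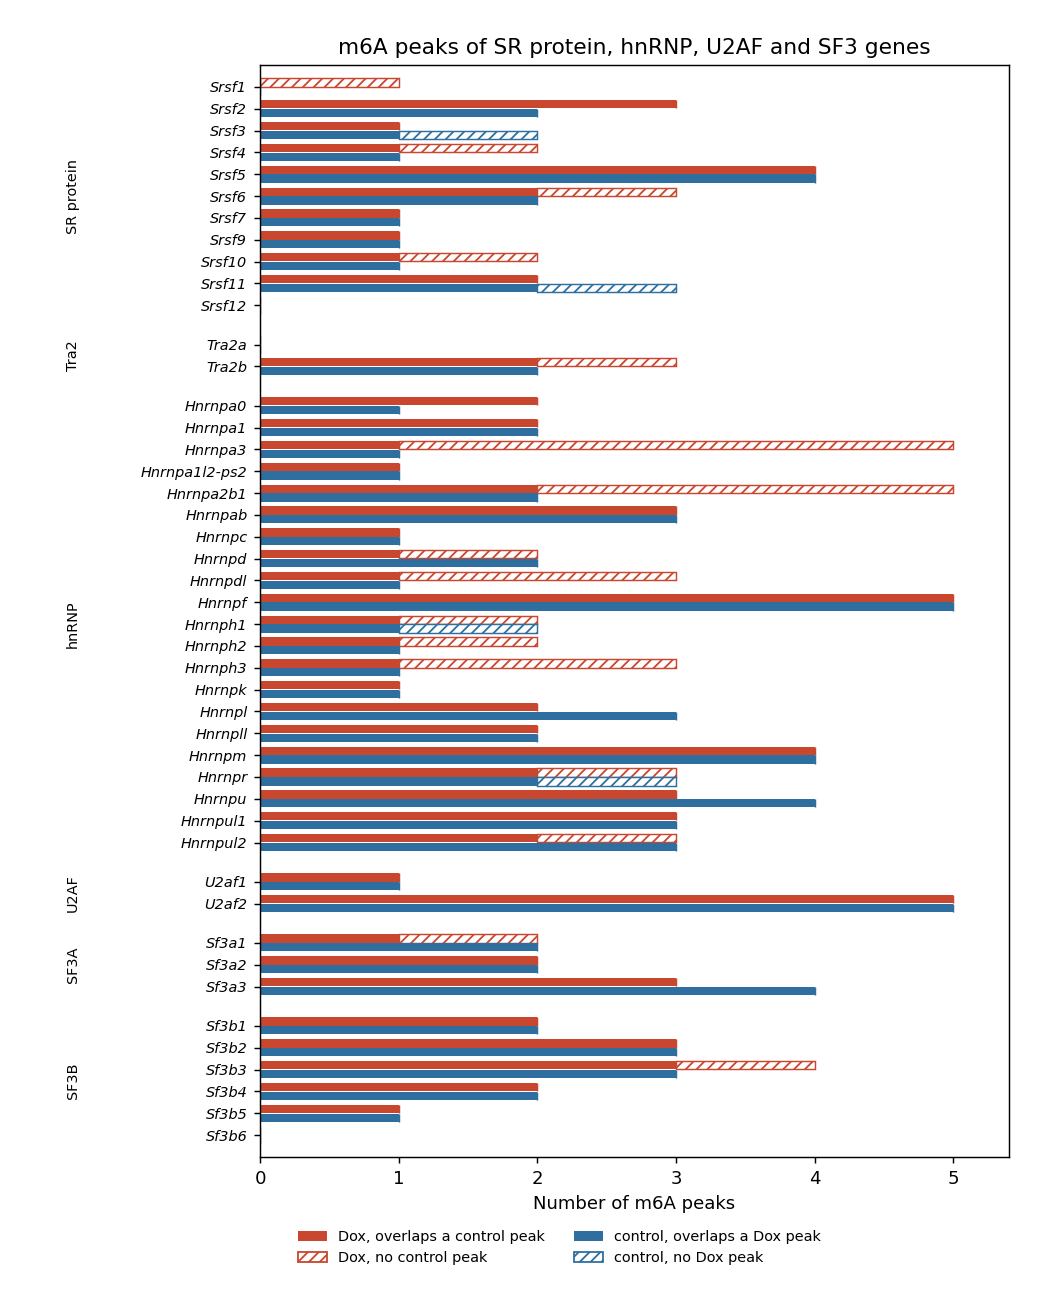
Number of m6A peaks (x axis) of each of the 45 genes, grouped by family, with Dox bars above control bars; filled parts are peaks that overlap a peak of the other condition and hatched parts are peaks that do not. Hatched parts sum to 23 peaks in Dox, 7 of them on Hnrnpa3 and Hnrnpa2b1, and to 4 in control.

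Enrichment differed more than presence. The fold, which is the authors' ratio of IP over input for a peak, had a median of 2.60 over the 105 Dox peaks and 3.565 over the 90 control peaks, against 3.51 and 4.62 over all Dox and all control peaks. A fold of at least 8 was reached by 1 Dox peak (Srsf4, 11.2) and by 17 control peaks on 16 genes. These are 0.952% of the Dox peaks and 18.9% of the control peaks of the splicing genes, against 9.40% of all Dox peaks and 26.8% of all control peaks. Each control peak was paired with the Dox peak it shared most exonic bases with, which gave 86 pairs. The log2 ratio of fold, Dox over control, had a median of -0.18 over these pairs (95% rank interval -0.28 to -0.10), against -0.24 over all 20832 pairs. Rank intervals here treat pairs as independent, although several pairs lie on 1 gene or share 1 Dox peak, and they hold no replicate error. The Dox fold was at most 1/2 of the control fold in 16 of the 86 pairs (18.6%), where 19.2% of all pairs lay, so this share is close to the background. No pair had a Dox fold of 2 times the control fold or more, where 5.34% of all pairs lay.

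Among the SR protein genes, Srsf4 carried the highest Dox fold of all 45. SRSF4 is the longest of the classical SR proteins. Its strong peak, chr4:131897758-131901138 in control, had a fold of 11.2 in Dox and 20.3 in control, with log10 p of -444 and -1230. Dox listed a second, weak Srsf4 peak (fold 2.06, log10 p -2.18) that control did not. The Srsf6 peak at the start of the gene had a fold of 4.13 in Dox and 12.3 in control. Srsf6 also had a peak in the body of the gene, with a fold of 1.70 in Dox and 1.39 in control, so the weaker peak lay the other way. A further Dox peak of Srsf6, at fold 1.32, had no control partner.

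Srsf9 and Srsf10 had the largest differences of the family. SRSF10 is known as a splicing repressor when dephosphorylated. Its peak at the start of the gene had a fold of 2.81 in Dox, with a log10 p of only -5.14, and 12.3 in control, a log2 ratio of -2.13. The single Srsf9 peak had a fold of 3.15 in Dox and 13.5 in control, a log2 ratio of -2.10. Srsf10 had a second Dox peak, at fold 2.22 and log10 p -3.41, with no control partner.

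Srsf3 and Srsf11 each had a control peak with no Dox peak over it. SRSF3 is the smallest SR protein and, with SRSF7, an adaptor for export of mRNA. The Srsf3 peak at chr17:29038526-29038706 had a control fold of 5.09 and a log10 p of -137, and it was the 1 control peak of these genes at a log10 p of -50 or less without a partner. The other Srsf3 peak had a fold of 1.46 in Dox, at a log10 p of -2.31, and 3.74 in control, at a log10 p of -44.8. Both Srsf3 peaks were therefore weak or unlisted in Dox. The Srsf11 peak at chr3:158031547-158031756 had a control fold of 5.54 and a log10 p of -10.3, and the other Srsf11 peaks had folds of 4.36 and 4.22 in Dox against 4.03 and 6.32 in control.

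Srsf5 and Srsf1 lay in the other direction. Srsf5 had 4 peaks in each condition, all paired, and none had a lower fold in Dox. Its peak at the start of the gene had a fold of 3.71 in Dox and 2.09 in control, which is the highest log2 ratio of all 86 pairs at 0.83. The next had 2.33 in Dox and 1.57 in control, then 1.69 in both, and the peak nearest the 3' end 2.17 in Dox and 1.35 in control. Srsf1, the founding SR protein, had 1 Dox peak at chr11:88047702-88047971 with a fold of 2.84 and a log10 p of -16.6, and no control peak.

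Srsf2 and Srsf7 had smaller differences. SRSF2 binds exonic enhancers. In control, 1 Srsf2 peak of 867 exonic nt began at the start of the gene with a fold of 4.63, and in Dox the same stretch held 2 peaks, with folds of 2.65 and 1.61. A further Srsf2 peak had a fold of 2.38 in Dox and 2.80 in control. The Srsf7 peak had the same bounds in both tables, with a fold of 5.0 in Dox and 5.77 in control. Tra2b, whose protein binds GAA-rich enhancers, had a 5' peak with folds of 3.80 in Dox and 3.94 in control and an internal peak with folds of 2.84 in Dox and 4.79 in control. A further weak Tra2b peak, at fold 1.69, was listed in Dox alone.

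The hnRNP genes held 57 Dox peaks and 46 control peaks, and 16 of the 23 Dox peaks without a partner. These 16 are 28.1% of the hnRNP Dox peaks, near the 29.1% of all Dox peaks. Hnrnpdl had the largest difference of all members. HNRNPDL is a relative of the AU-rich element binding protein HNRNPD. Its peak, chr5:100039066-100039664 in control, had a fold of 5.42 in Dox and 33.0 in control, with log10 p of -15.8 and -220, a log2 ratio of -2.61. Dox listed another 2 Hnrnpdl peaks further along the gene, with folds of 2.60 and 2.34, where control had none. The single control peak of Hnrnpdl was thus much less enriched in Dox, and the peaks downstream were listed in Dox alone.

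In the hnRNP U group the strongest peak of each gene was lower in Dox. HNRNPU, also called scaffold attachment factor A, binds chromatin-associated RNA, and HNRNPUL1 and HNRNPUL2 share its domains. The Hnrnpu peak at chr1:178336351-178337797, which has identical bounds in both tables, had a fold of 6.51 in Dox and 20 in control. At a log10 p of -2390 in control, it had the lowest p of the control peaks of these genes. The adjacent Hnrnpu peak had a fold of 3.49 in Dox and 9.35 in control. The other 2 control peaks of Hnrnpu, with folds of 1.42 and 1.51, lie in 1 wide Dox peak with a fold of 2.15. Some Hnrnpu peaks are also listed under a second identifier at the same place, which was left out of the counts.

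Hnrnpul1 had a fold of 7.64 in Dox and 22.2 in control at its first peak, and its other 2 pairs had folds of 1.51 and 1.33 in Dox against 1.55 and 1.61 in control. Hnrnpul2 had a fold of 5.35 in Dox and 21.1 in control at its first peak. Further along Hnrnpul2, 1 Dox peak with a fold of 2.75 covered 2 control peaks with folds of 2.18 and 2.98, and another Dox peak (fold 2.34, log10 p -26.3) had no partner. In each of these 3 genes the peak with the highest control fold had the lowest log2 ratio.

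Hnrnpll, Hnrnpl, Hnrnpab and Hnrnpm shared this shape, which 23 of the 25 splicing genes with at least 2 pairs had. The control fold is part of the ratio, so the shape is in part favoured by construction. HNRNPL binds CA repeats, and its paralogue HNRNPLL is known for exon choice in lymphocytes. Hnrnpll had a 5' peak with a fold of 5.75 in Dox and 21.8 in control, and a weak internal peak with 4.70 in Dox and 4.18 in control. Hnrnpl had a fold of 4.67 in Dox and 12.2 in control at its first peak, and downstream 1 Dox peak (2.66) over 2 control peaks (1.95 and 3.10). The first Hnrnpab peak had a fold of 3.30 in Dox and 11.7 in control. Its other peaks had folds of 2.56 and 2.89 in Dox against 3.58 and 2.95 in control, so the difference was largest at the start. Hnrnpm, which codes for a binder of GU-rich sequence, had folds of 6.74, 1.94, 4.70 and 4.40 in Dox from 5' to 3', against 10.6, 2.06, 3.92 and 6.50 in control.

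Among the A/B type genes, Hnrnpa3 and Hnrnpa2b1 had the largest excess of Dox peaks over control peaks. These proteins bind UAG-containing silencers, and HNRNPA2B1 has been proposed as a nuclear reader of m6A. Hnrnpa3 had 1 control peak, with a fold of 1.45 in Dox and 2.40 in control, and another 4 Dox peaks without a partner, of which that of lowest p, chr2:75665038-75665631, had a fold of 2.11 and a log10 p of -50.9. Hnrnpa2b1 had 5 Dox and 2 control peaks. Its 3 unpartnered Dox peaks had folds of 1.75, 1.89 and 1.38, and its pairs had 1.96 and 1.88 in Dox against 2.46 and 1.64 in control. The highest Hnrnpa2b1 fold was thus the control value of 2.46.

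Hnrnpa1 and Hnrnpc were higher in Dox. HNRNPC binds uridine tracts, and its access to them is known to depend on m6A in the RNA around them. The single Hnrnpc peak had a fold of 3.21 in Dox and 2.44 in control. Hnrnpa1 had folds of 2.30 and 2.54 in Dox against 1.74 and 1.90 in control, and the Dox peaks were wider, at 840 and 451 exonic nt against 271 and 211. Hnrnpa1l2-ps2, a near copy of Hnrnpa1 that RefSeq lists as protein-coding, had 1 peak with a fold of 1.85 in Dox and 2.01 in control; reads could be shared between the copies, so the values of both are uncertain. Hnrnpd, a factor of AU-rich mRNA decay, had 1 Dox peak at fold 3.44 over 2 control peaks at 3.28 and 2.95, and a weak Dox peak at 1.27 without a partner. Hnrnpa0, which has a single peak of 1191 exonic nt in control at fold 10.4, had 2 peaks there in Dox at 4.59 and 2.11.

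The products of the H and F genes bind runs of G. Hnrnph1 had a peak of identical bounds with a fold of 3.32 in Dox and 4.00 in control, a weak Dox peak (1.66) without a partner, and a control peak at chr11:50379741-50379831 (fold 2.89, log10 p -7.38) that was not listed in Dox. Hnrnph2 had a fold of 3.74 in Dox and 4.05 in control, and a weak Dox peak at 1.70. Hnrnph3 had 1 pair, at 2.23 in Dox and 4.43 in control, and another 2 Dox peaks at 4.18 and 2.40. Hnrnpf had a first peak with a fold of 2.60 in Dox and 5.95 in control. Further 3' the tables list the same 2 stretches in duplicate. The first stretch had folds of 2.22 and 2.19 in Dox against 2.43 and 2.35 in control, and the next 3.11 and 3.07 in Dox against 1.94 and 1.93 in control. Counting each stretch once gave 103 Dox and 88 control peaks over all the splicing genes.

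The last hnRNP genes were Hnrnpk and Hnrnpr. HNRNPK binds C-rich sequence, and its 1 peak had a fold of 2.89 in Dox and 5.09 in control, although its log10 p was lower in Dox (-154 against -66.5) over a somewhat wider peak. Hnrnpr had folds of 6.08 and 2.48 in Dox against 7.30 and 2.68 in control. The unpartnered peaks of Hnrnpr were weak in both tables, with a Dox fold of 2.51 and a control fold of 3.52 for a peak beyond the RefSeq end of the gene.

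The U2AF genes had 6 peaks in each condition, all of them shared and all lower in fold in Dox, where 62.3% of all pairs were lower. Their median log2 ratio was -0.20, against -0.24 over all pairs, and 5 of the 6 pairs lie on U2af2. U2AF1 reads the AG at the end of the intron and U2AF2 the pyrimidine tract before it. U2af2 had 5 peaks in each condition, with folds of 3.13, 4.12, 2.62, 1.67 and 3.61 in Dox from 5' to 3', against 3.55, 7.05, 2.97, 1.74 and 4.24 in control. The second of these differed most, at a log2 ratio of -0.77. U2af1 had 1 peak near the 3' end, with a fold of 2.36 in Dox and 2.73 in control.

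The SF3A genes code for the 3 subunits that join U2 to SF3B. Sf3a1 had 1 Dox peak of 1140 exonic nt, at fold 5.56, over 2 control peaks with folds of 8.03 and 5.26. Sf3a1 also had the unpartnered Dox peak of lowest p among all members, at chr11:4166623-4171232, with a fold of 2.80 and a log10 p of -59.6. Sf3a2 had folds of 1.44 and 3.52 in Dox against 1.72 and 6.69 in control. Sf3a3 had 1 Dox peak at its start, with a fold of 2.55, over 2 control peaks with folds of 6.15 and 2.23, and its other pairs had 1.99 and 3.51 in Dox against 2.15 and 3.90 in control.

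SF3B1 is the subunit that clamps the branch point region and is mutated in blood cancers. The Sf3b1 start peak had the same bounds in both tables, with a fold of 6.51 in Dox and 6.83 in control, and a weak internal peak had 1.78 in Dox and 1.43 in control. Sf3b2 had its strongest peak inside the gene, at chr19:5283882-5288372 in control over 9 exonic blocks, with a fold of 4.45 in Dox and 11.7 in control. The other Sf3b2 pairs had folds of 3.16 and 1.70 in Dox against 5.84 and 1.37 in control. Sf3b5, a gene of 734 nt, was covered whole by 1 peak, with a fold of 4.81 in Dox and 9.60 in control. Sf3b4 had folds of 3.32 and 2.76 in Dox against 3.78 and 1.78 in control. Sf3b3 had folds of 2.31, 2.04 and 1.91 in Dox against 1.98, 2.95 and 1.31 in control, and a weak Dox peak at 1.55 without a partner.

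**Figure D2:**
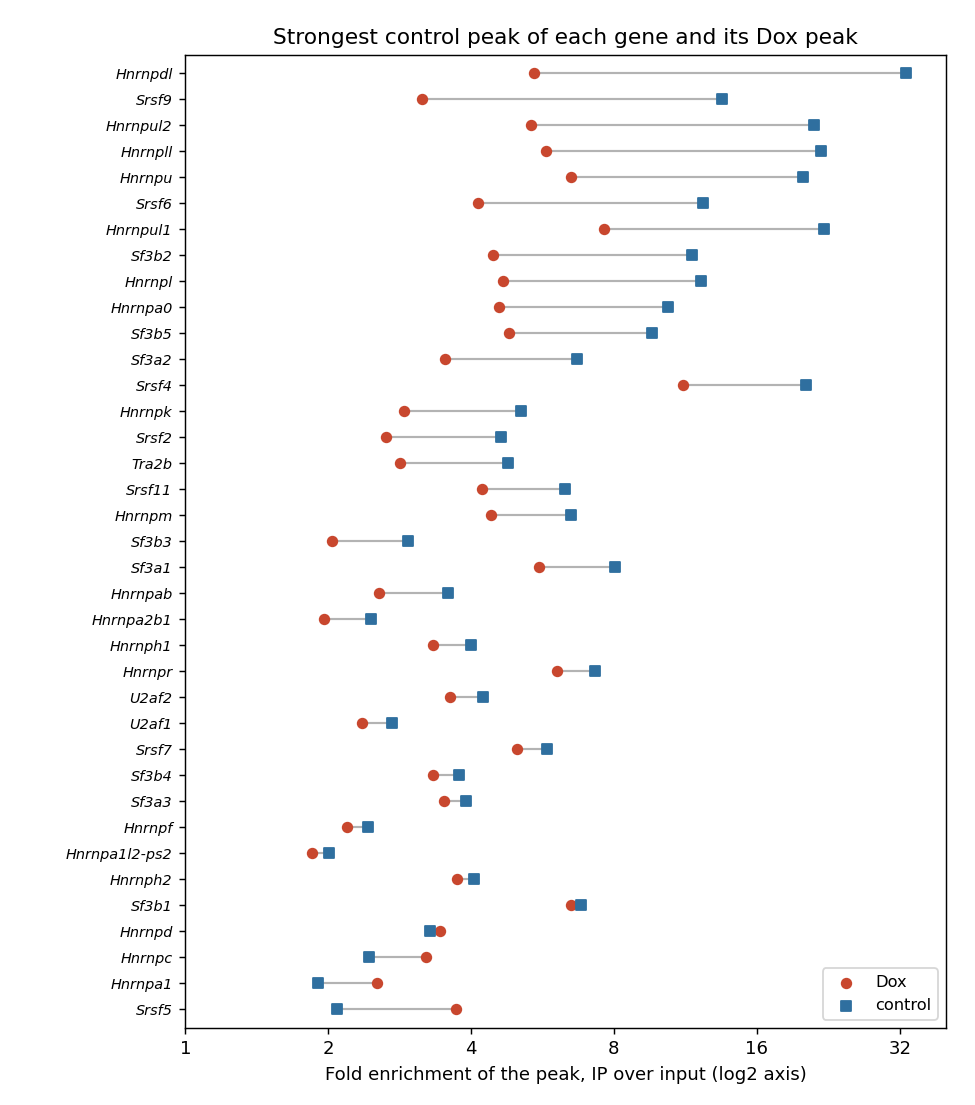
Fold enrichment (x axis, log2 scale) of each gene's paired control peak of lowest FDR, where both peaks reach a log10 FDR of -5 (blue squares) and of its Dox peak (red circles), for 37 genes sorted by log2 ratio. The Dox fold is below the control fold for 33 genes, from Hnrnpdl at the top, and above it for Hnrnpd, Hnrnpc, Hnrnpa1 and Srsf5 at the bottom.

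Each gene was also taken by its pair of lowest control FDR, which need not be its pair of highest fold. The Dox fold was lower in 33 of 37 genes, with a median log2 ratio of -0.53 and a range of -2.61 to 0.83. The pair is chosen by its control peak, so a lower Dox fold is in part favoured by construction. The 6188 named genes with such a pair had the same median, -0.53, and 77.7% of them were lower in Dox. A Dox fold of at most 1/2 of the control fold was found in 10 of the 37 genes (27.0%), beside 25.9% of the 6188. Over all pairs, 68.6% were lower in Dox on the splicing genes and 62.3% in the whole tables. Whether these shares differ was not tested.

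Pairs of 1 gene often lay in both directions. Of the 25 genes with at least 2 pairs, 15 had pairs of both directions and 7 had only pairs that were lower in Dox. The other 3, Hnrnpa1, Hnrnpd and Srsf5, had no pair that was lower in Dox. Of the same 25 genes, 23 had their lowest log2 ratio at the peak of highest control fold. These per-gene counts were not made over all named genes, so they are not shown to be particular to the splicing genes. Over the 86 pairs, the median log2 ratio was -1.54 for the 17 control peaks with a fold of 8 or more, all of them lower in Dox, and 0.40 for the 21 with a fold under 2. The named genes had -1.11 and 0.46 in these classes. The control fold is part of the ratio, so this order holds in part by construction.

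Dox peaks were wider, on these genes as in the whole tables. Their median exonic width was 330 nt, against 240.5 nt in control (240 and 211 nt over all Dox and all control peaks), and the peaks summed to 44325 exonic nt in Dox and 31525 in control. The Dox peak was the wider of the pair in 53 of 86 pairs (61.6%) and the control peak in 15, and it was the wider in 62.3% of all 20832 pairs. On Sf3a1, Sf3a3, Hnrnpl, Hnrnpd, Hnrnpu and Hnrnpul2 a single Dox peak spanned 2 control peaks, and on Srsf2 and Hnrnpa0 a single control peak spanned 2 Dox peaks. Dox peaks over 2 or more control peaks were 11.4% of the Dox peaks of these genes and 8.18% of all Dox peaks. These shares include stretches listed in duplicate. A fold is taken over the whole peak, so pairs of unequal width compare different stretches. The 15 pairs with identical bounds had a median log2 ratio of -0.23 (-0.77 to -0.07) and 13 of them (86.7%) were lower in Dox. The other 71 pairs had a median of -0.15. In the whole tables, the 1776 pairs with identical bounds had a median of -0.41 with 77.7% lower in Dox, and the other pairs -0.22.

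**Figure D3:**
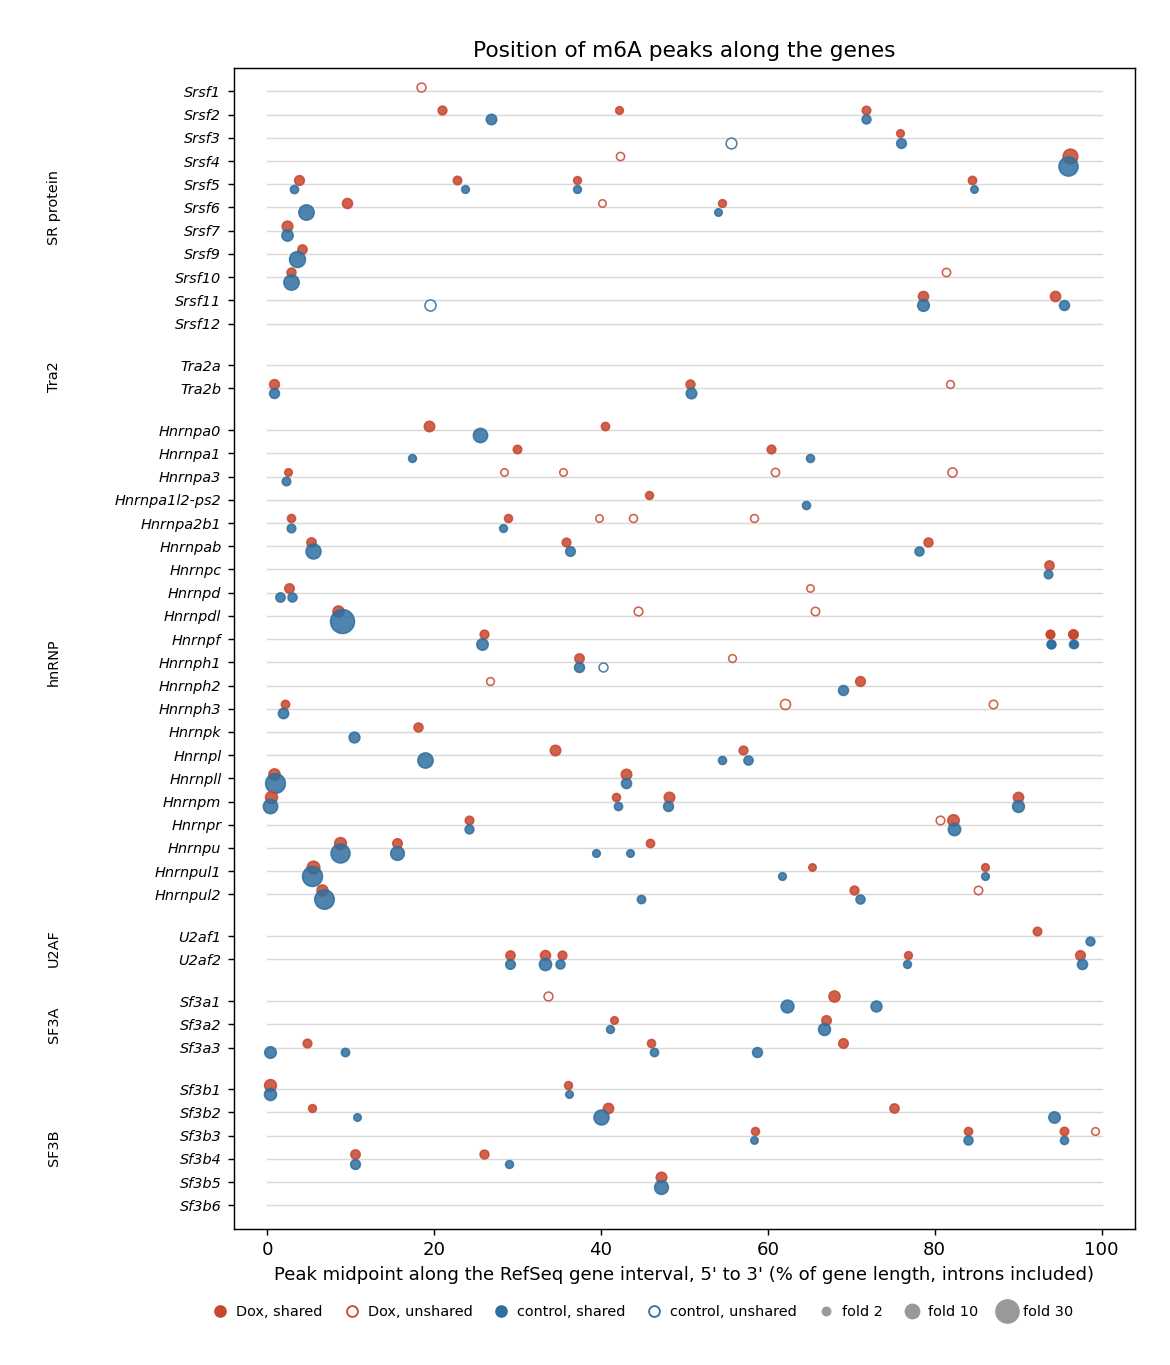
Midpoint of each peak along the RefSeq gene interval (x axis, percent of gene length with introns, 5' to 3'), with Dox above control on each gene's line; filled symbols are peaks shared with the other condition, open symbols are not, and symbol area grows with fold. Among the largest control symbols are Hnrnpdl (33.0) near the left edge and Srsf4 (20.3) further right, and open symbols are mostly Dox peaks; 1 Hnrnpr control peak beyond the gene's end is not drawn.

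Many of the larger differences lay at RefSeq starts, some of which are inside the gene interval. RefSeq gives 54 starts for 40 of the genes, and a peak was said to cover a start when its exonic blocks took in any of the first 50 transcribed bases. In Dox, 20 of 92 peaks of such genes (21.7%) covered a start, and in control 22 of 77 (28.6%). Over all named genes the shares were 7.92% in Dox and 12.98% in control, so starts were covered more often on the splicing genes in both tables. Of the 22 control peaks at a start, 21 had a Dox partner, and the exception was the Srsf11 peak. Over all named genes, 25.2% of control peaks at a start had no Dox partner. These shares were not matched for p, and the peaks of the splicing genes had lower p than most. The Srsf6 peak covered the start in control alone, with its 5' edge 139 nt from the start in Dox and 20 nt in control.

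The pairs at a start had a median log2 ratio of -0.82 (-1.54 to -0.27), and 18 of 21 were lower in Dox. The 52 pairs away from a start had a median of -0.11 (-0.22 to 0.11), with 31 lower in Dox. The intervals treat pairs as independent, and whether the medians differ was not tested. The named genes had -0.90 at starts and -0.17 elsewhere, so the splicing genes had the same order as genes in general. Control folds were higher at starts, with a median of 5.95 against 2.705 elsewhere. Among peaks with a control fold of 8 or more, the 8 start pairs had a median log2 ratio of -1.60 and the 6 others -1.29.

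**Figure D4:**
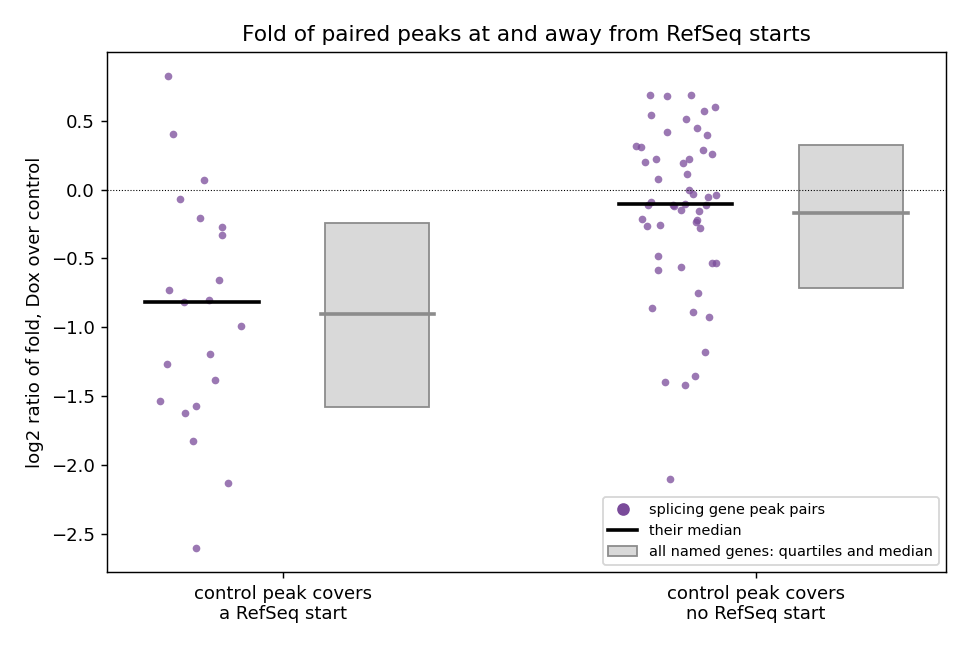
Log2 ratio of fold, Dox over control (y axis), for each pair of peaks on the splicing genes (purple points, black line at the median), split by whether the control peak covers a RefSeq start; grey boxes are the quartiles and median of all named genes. The 21 pairs at a start have a median of -0.82 and the 52 pairs elsewhere -0.11; points are spread sideways for legibility.

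The sequences around the starts under these peaks are shown because the pair with the lowest log2 ratio, on Hnrnpdl, and the pair with the highest, on Srsf5, both cover a RefSeq start. Each line is 15 bases before and 15 after a RefSeq start (GRCm38.p6, the assembly of mm10), on the strand of the gene, with the transcribed bases in capitals.
Srsf11, inner start (chr3:158031734-158031763, minus strand): cgggcgtgtggaattGTGGGCCGGCTGCGC
Srsf10 (chr4:135856056-135856085, plus strand): gtgggagggggcctgGAGGCGGGAGCCAAG
Srsf6 (chr2:162931493-162931522, plus strand): gggcacttatagcgtAGGCCGGCGCGCGCG
Hnrnpdl (chr5:100039208-100039237, minus strand): gccgctcgcgattccCGGTCCCGCACGGCT
Hnrnpab (chr11:51606867-51606896, minus strand): gtggtgcccggcttcGGCATTATAAAGAGC
Hnrnpul1 (chr7:25754745-25754774, minus strand): gcggcggccatcttgAGCCGCCGCCGCCAT
Hnrnpl (chr7:28810875-28810904, plus strand): caatgagaggcggggGGAGGCGGGTTCTGC
Srsf7 (chr17:80207291-80207320, minus strand): tccggcctcttccttGTAGTGCCGCCGGGA
Sf3b1 (chr1:55027464-55027493, minus strand): gaagtacgtgctacaGTGCGGCGCGCGCTC
Srsf5 (chr12:80945484-80945513, plus strand): gacgccaggacgtccCTTCCATTTTGTGCA
The Srsf11 start lies inside the gene, downstream of the outermost RefSeq start, and the control peak that Dox did not list begins 8 nt before it. In both conditions the Hnrnpdl start peak begins upstream of the RefSeq start shown, but 272 nt inside the 5' end of the gene interval. The Hnrnpul1 and Hnrnpl start peaks begin 1511 and 2313 nt inside that end. The starts shown for Hnrnpdl, Hnrnpul1 and Hnrnpl are thus internal to the gene interval too. From Srsf10 to Hnrnpl the start peaks had log2 ratios from -2.61 to -1.39. Srsf7, Sf3b1 and Srsf5 had -0.21, -0.07 and 0.83.

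GGAC, the core of the m6A motif, was looked for in the first 50 transcribed bases on the sense strand. It was present in 12 of the 54 starts of these genes (22.2%), against 19.97% of 21263 starts of protein-coding genes. Its reverse complement GTCC was present in 27.8% against 18.8%, so the motif was no more frequent on the sense strand than on the other. Of the 25 starts under a peak 4 held GGAC, while 12 of all 54 did, so GGAC was not more frequent at starts under a peak. These 4 starts lie on 4 of the 22 genes with a start under a peak, with GGAC inside the peaks of both conditions. These 30-base stretches are shown with the first GGAC in capitals.
Hnrnpu (chr1:178337768-178337797, minus strand): cgcccctgcgagaGGACgttgcgtgctcgc
Hnrnpk (chr13:58402068-58402097, minus strand): cggcgcggccgggaggcaacggcGGACtcg
Hnrnph1 (chr11:50378293-50378322, plus strand): ccgcaatctgtgtGGACgccaggaccaccg
Hnrnpf (chr6:117906802-117906831, plus strand): ccgtcgtggaaggaGGACtgcgcctcgtct
Log2 ratios at these peaks were -1.62 for Hnrnpu, -0.82 for Hnrnpk, -0.27 for Hnrnph1 and -1.19 for Hnrnpf. The starts of Hnrnpdl, Srsf10 and Srsf6, with log2 ratios of -2.61, -2.13 and -1.57, held no GGAC in this window. A match is a run of letters and not a mapped site. Antibodies to m6A also bind m6Am, the modified first base of transcripts that begin with A, and its part in these peaks was not tested. Of the 25 starts under a peak 5 begin with A, as do 6 of the 29 not under a peak, and 37.4% of all starts of protein-coding genes do.

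By distance along the gene interval, without the list of starts, 12 Dox peaks and 15 control peaks had their midpoint within 500 nt of the 5' end of genes of at least 3000 nt, which is 11.9% and 17.4% of the peaks placed, against 7.70% and 13.005% over all Dox and all control peaks. The 15 control peaks all had a Dox partner, while 38.5% of such control peaks of named genes had none. This contrast was not matched for p, and the peaks of the splicing genes had lower p than most. The median log2 ratio of the 15 pairs was -0.73, against -0.80 in named genes. The Dox peak began further into the gene in 8 of these 15 pairs, at the same base in 6 and nearer the end in 1. In named genes it began further in for 871 of 1785 such pairs (48.8%), so the members' share of 53.3% is near the general one.

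The Dox peaks without a control partner were mostly weak, with folds of 1.27 to 4.18 and a median of 2.06. Of these 23 peaks, 8 are in the authors' shorter list, whose limits are a p of 1e-05 and a fold of 2, and 14 had a log10 p above -10. Over the whole tables, 7196 of the 8024 Dox peaks without a partner had a log10 p above -10. By p, such weak peaks were thus a larger part of the unpartnered Dox peaks in general than on these genes. By log10 p the lowest were on Sf3a1, Hnrnpa3, Hnrnpul2, Hnrnpa2b1 and Hnrnpdl, and by fold the highest were on Hnrnph3 (4.18), Hnrnpa3 (3.12) and Srsf1 (2.84). Of the 4 unpartnered control peaks, 3 are in the control list.

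Other splicing genes also had more unpartnered peaks in Dox than in control. From 66 genes of the snRNPs, SR protein kinases, coactivators, regulators and the exon junction complex, 57 had a peak and 52 had peaks in both conditions. Snrpc, Ptbp3, Tial1 and Magoh had peaks in Dox alone and Snrpe in control alone. In Dox, 39 of their 160 peaks (24.4%) lacked a partner, against 29.1% of all Dox peaks. In control it was 13 of 145 (8.97%), against 19.3% of all control peaks, so the order was that of all peaks. The shares were not matched for p, and the median log10 p of these genes was -27.85 in Dox and -30.2 in control. Their median log2 ratio was -0.16 over 132 pairs, and 12 of these pairs had a Dox fold of at least 2 times the control fold, where the SR, hnRNP, U2AF and SF3 genes had none. In the exon junction complex, Eif4a3 and Rbm8a had top folds of 20.1 and 8.68 in Dox against 5.06 and 5.59 in control, while Casc3 and Rnps1 had 5.49 and 2.58 in Dox against 11.2 and 3.51 in control. Over the 11 pairs of that complex the median log2 ratio was -0.14, with 6 lower in Dox.

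Setd2, the target of the knockdown, had 6 Dox peaks with a top fold of 6.51 and 10 control peaks with a top fold of 10.2; a peak table does not measure transcript level, so this does not check the knockdown. Of 10 markers of naive stem cells, 10 had peaks in both conditions. Of 8 fibroblast markers, Col1a1 had peaks in both and Pdgfrb in control alone.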

How the data were processed

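m6A peaks came from 8 libraries: IP and input from Dox and from control cells, in 2 replicates each. Tools in the submitters' processing notes are TopHat2 2.1.1 and FastQC 0.11.5, with mm10 as the build. The authors deposited a table and a shorter list of exomePeak peaks per condition, pooled over replicates per the labels; neither settings nor version are named (not given in the sources used here). Per the file headers, the deposited tables hold a fold (a ratio of IP over input), a p-value, and its log10 and that of the FDR, which have no fixed range and are treated as a score. The log10 FDR has no finite value for 371 Dox and 888 control peaks, so log10 p is printed.

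The files name genes by Ensembl identifiers. An identifier was named after the RefSeq gene (GRCm38.p6, protein-coding) that contained 50% or more of the identifier's peak midpoints on the same strand. This named 10679 genes from 13110 identifiers. If a gene matched several identifiers, that with the largest number of peaks stood for it; 5 members had no strand in RefSeq and were matched by location. Exon annotation was not used here, so peaks are not assigned to coding or untranslated regions. RefSeq starts come from its promoter sequences of 300 bases (250 before the start); the genes without one are Sf3b4, Sf3b5, U2af2, Hnrnpll and Hnrnpul2.

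Shares have exact (Clopper-Pearson) 95% intervals. Medians have 95% intervals from ranks, which treat pairs as independent and hold no replicate error. The overlap calls were checked on simulated peaks. Members and lists were chosen with earlier results of these data known. Genes described in full are those with the lowest FDR of each family, with peaks in 1 condition or an unpartnered peak, with extreme ratios or with a 5' peak; others were named after their values were seen. Python 3.11.15, numpy 2.4.6, pandas 2.3.3, scipy 1.17.1 and matplotlib 3.10.9 were used.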

Additional observations from a re-analysis of the deposited data

How the results depend on the processing

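Of 55 alternative values, 12 were classed as moved and 43 were not, but the second class still holds sizeable changes. Among them are 66 control peaks in place of 90 and 71 Dox peaks in place of 105 with the authors' shorter lists. Another is 22 control peaks at the 5' end in place of 15 when cover of a RefSeq start was used. The median log2 ratio was negative under each of its 7 alternatives. With only the authors' shorter lists, control peaks without a Dox partner made up 13.6% (24.0% over all peaks) and the median log2 ratio was -0.48 (-0.33 over all pairs). With a fold of at least 4 in both tables, 23 Dox and 39 control peaks and 19 genes with both remained; 8.70% of these Dox peaks and 41.0% of these control peaks lacked a partner (31.6% and 45.7% over all peaks), and 4 Dox peaks lay at the 5' end. On these genes, a larger share of Dox than of control peaks was unpartnered in the full tables and in the shorter lists (23.9% of Dox peaks). The same held with log10 FDR limited to -5 (20% of Dox and 9.64% of control peaks), but not at a fold of at least 4. Over all peaks the shares were 22.3% of Dox and 24.0% of control peaks in the shorter lists. With the FDR limit they were 22.3% and 21.0%. The Dox shares of the splicing genes were thus near those over all peaks in both settings. With a 5' window of 250 nt there were 6 Dox and 9 control peaks, and with 1000 nt 19 Dox peaks. Cover of a RefSeq start, an alternative chosen after seeing the data, gave 20 Dox peaks at the 5' end. Counting overlapping peaks of 1 identifier once and leaving out Hnrnpa1l2-ps2, also chosen after seeing the data, kept each value recomputed near that reported. No paired analysis was possible because the replicates are pooled in each deposited table; for the same reason no replicate could be left out. Depth behind each peak is unknown, so an unlisted peak may be a stretch below the caller's threshold.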
